A study of Homo sapiens with 6 samples.

Results

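The 10 genes described here encode proteins that build and join chromosomes in meiosis: the cohesin subunits STAG3, REC8 and SMC1B, the axis protein HORMAD1, the synaptonemal complex proteins SYCP1, SYCP2 and SYCP3, and the recombination proteins SPO11, DMC1 and MEIOB. They were taken by symbol from a list drawn up with earlier results of these data known, and all 10 were found among the 58381 genes of the count files. RNA came from 786-0, an established human line of clear cell renal carcinoma, and every library, those given vehicle included, carries the genotype label SETD2 KO. SETD2 trimethylates lysine 36 of histone H3. Cells were dosed on 3 successive days with DMSO (vehicle), 100 nM decitabine or 300 nM decitabine, refed on day 4 and collected on day 5, and each of these 3 groups has 2 poly-A libraries, 6 in all. Decitabine is a cytidine analogue that enters replicating DNA and traps DNA methyltransferases, which lowers DNA methylation. The labels do not say whether the knockout line is 1 clone, and cells with intact SETD2 are not analysed here, so the comparisons are between doses within knockout cells. Nor do they say if both libraries per group are separate cultures, and p-values therefore reflect just the scatter among these libraries, which may be technical.

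In germ cells entering meiosis, REC8 and STAG3 take the places that RAD21 and STAG1 or STAG2 hold in the cohesin ring of somatic cells, and SMC1B that of SMC1A. Axial elements of SYCP2 and SYCP3 form along this cohesin core, SPO11 cuts the DNA, DMC1 pairs the broken ends with the homologous chromosome with help from MEIOB, and SYCP1 zips the homologues together. Somatic tissues keep most of these genes off, several of them through methylation of CpG-rich promoters, and tumours can express some of them as cancer-testis antigens.

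Across dose the 10 genes went different ways. HORMAD1 and MEIOB were near 0 with DMSO and were the members with the highest fold changes with decitabine, SYCP3 and STAG3 rose at both doses, and DMC1 rose to a similar level at both doses. REC8 was the most abundant member per length in the DMSO libraries and rose by less than 1.5-fold at 300 nM, and SYCP2 was lower at 300 nM, but both of these directions reversed when exon length and GC content were modelled. SMC1B passed no test, and SYCP1 and SPO11 stayed at or near 0 reads in every group.

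Decitabine acts on DNA methylation at CpG dinucleotides, which these files do not measure, so the promoter letters are shown for what they hold. RefSeq promoter windows (GRCh38.p14, from 250 bases before to 50 after a start) were found for 8 of the 10 genes, in 9 windows because STAG3 has 2 starts, and HORMAD1 and MEIOB had no entry. Among 35116 such windows of 27305 genes the median was 14 CpG. SYCP1 held 15 CpG, STAG3 20 and 30, SYCP3 24, REC8 26, SPO11 26, DMC1 29, SMC1B 34 and SYCP2 41, a number that 6.70% of all windows reach. Promoters of SYCP3 and STAG3, which rose at both doses, are set beside that of SYCP2, which holds the most CpG, and that of SYCP1, which holds the fewest and stayed near 0. Each is written 5′ to 3′ on the gene's strand, from the upstream end of the window to the last base before the gene starts in the count files, with CpG in capitals.
SYCP3 (chr12:101739473-101739712, minus strand): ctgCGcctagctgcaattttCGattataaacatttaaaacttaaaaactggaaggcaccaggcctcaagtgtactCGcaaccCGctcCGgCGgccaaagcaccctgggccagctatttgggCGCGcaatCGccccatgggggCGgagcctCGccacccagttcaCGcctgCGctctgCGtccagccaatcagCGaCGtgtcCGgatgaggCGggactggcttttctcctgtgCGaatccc
STAG3 (chr7:100177474-100177562, plus strand): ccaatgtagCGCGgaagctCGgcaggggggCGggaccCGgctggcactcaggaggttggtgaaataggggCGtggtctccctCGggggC
SYCP2 (chr20:59933656-59933887, minus strand): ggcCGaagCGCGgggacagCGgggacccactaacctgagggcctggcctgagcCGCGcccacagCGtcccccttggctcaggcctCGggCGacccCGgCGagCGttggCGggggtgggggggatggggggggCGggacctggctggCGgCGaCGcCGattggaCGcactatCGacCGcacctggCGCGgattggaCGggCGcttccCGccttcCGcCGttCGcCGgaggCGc
SYCP1 (chr1:114854613-114854802, plus strand): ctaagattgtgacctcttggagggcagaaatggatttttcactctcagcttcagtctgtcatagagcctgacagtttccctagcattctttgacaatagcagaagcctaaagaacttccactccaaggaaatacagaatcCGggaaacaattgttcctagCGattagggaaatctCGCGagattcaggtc
In these stretches SYCP3 has 19 CpG in 240 bases, STAG3 7 in 89, SYCP2 31 in 232 and SYCP1 4 in 190. The capital C that ends the STAG3 stretch belongs to a CpG whose G is the gene's first base, and it is not counted. SYCP2 and SMC1B hold the most CpG, and neither was called higher in the fit to the counts. SYCP2 was called higher when exon length and GC content were modelled, and SMC1B had at most 14 reads in a library. SPO11 and REC8 hold 26 CpG each, and SPO11 was at 0 reads in 5 of 6 libraries and REC8 at 650 or more in each. HORMAD1 and MEIOB, with the highest fold changes, have no window here. A relation of CpG number to response was not tested.

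**Figure D1:**
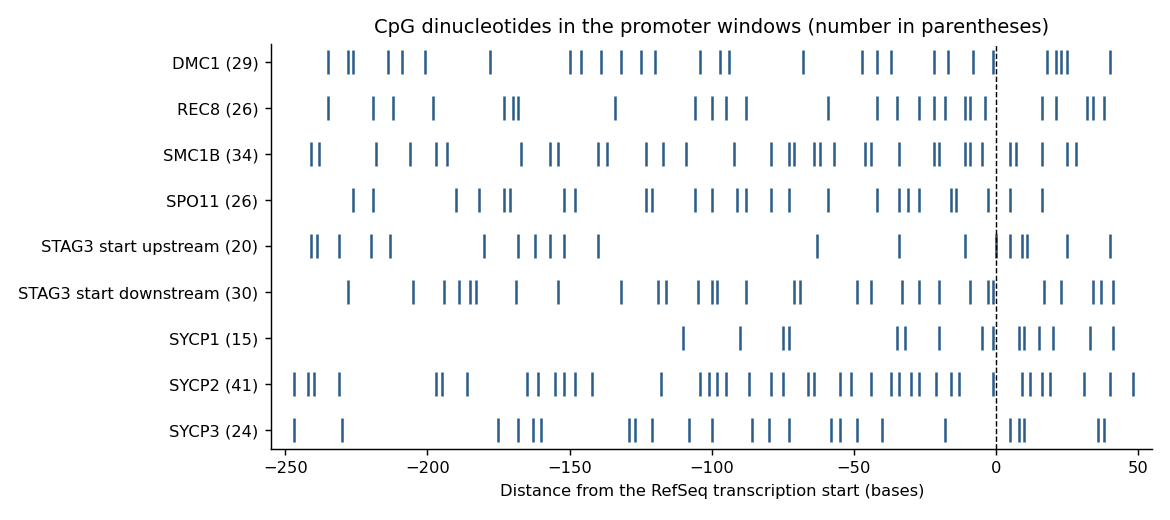
CpG positions in the 9 promoter windows of 8 genes. The horizontal axis is the distance in bases from the RefSeq transcription start (dashed line), each tick is 1 CpG, and the number after each name counts the CpG in the window, from 15 for SYCP1 to 41 for SYCP2, with the upstream and downstream starts of STAG3 shown apart.

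A pair of letter patterns was looked for in the whole windows, on both strands. One was GCGGGA, the core of an E2F-family site that E2F6, a DNA-binding member of the repressor complex PRC1.6, can bind. The other was CACGTG, the E-box that MGA with MAX of the same complex can bind. GCGGGA was present in windows of 7 of the 8 genes, all but DMC1, and in 26.9% of all windows. CACGTG was present in 1, STAG3, and in 7.26% of all windows. Each pattern itself holds a CpG, and every window of these genes holds more CpG than the median window. The shares of all windows are not matched for CpG and count windows rather than genes, so no excess can be read from them. In STAG3 both windows hold the same CACGTG, and no match of one pattern overlapped the other. These matches are descriptions of letters, not of binding.

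The 6 libraries held 89159112 to 96646427 reads assigned to genes, with both mates of a fragment counted. A count of 0 allows up to 3 fragments, or 6 reads, which is 0.0612 to 0.0725 CPM in a library. CPM here is the read count scaled to a library size adjusted by the trimmed mean of M values. The transcript of SETD2, the targeted gene, was present in all 6 libraries (DMSO 77.9 and 81.3 CPM, 100 nM 39.8 and 49.1 CPM, 300 nM 16.4 and 21.7 CPM) and cannot check the genotype without intact cells. Of 8 kidney carcinoma markers, 7 were detected in all 6 libraries and LRP2 had at most 4 reads. Their summed level was 3266 to 3300 CPM with DMSO, 3441 to 3620 CPM at 100 nM and 4646 to 5546 CPM at 300 nM, but the markers did not move together. At 300 nM the cytoskeletal genes VIM, KRT8 and KRT18 rose (log2 fold change 0.30, 1.43 and 2.28), while the renal lineage genes PAX8 and PAX2 and the kidney cadherin CDH6 fell by 1.66, 0.42 and 3.05 on the log2 scale, each called by edgeR.

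For 8 of the 10 genes, counts were high enough to test, and HORMAD1 and MEIOB passed that filter only through the decitabine libraries, so their difference was built into the selection and the counts of members below support nothing by themselves. At 100 nM against DMSO, 5 of the 8 were higher (SYCP3, STAG3, HORMAD1, DMC1 and MEIOB), where 24.0% of all 23160 tested genes were higher, and 0 were lower, where 18.7% of all genes were (edgeR's quasi-likelihood test, Benjamini-Hochberg adjusted p under 0.05). No alternative setting or tool called a member lower at 100 nM, DESeq2 included, and none had an unadjusted p under 0.05 with a negative change. At 300 nM against DMSO the same 5 and REC8 were higher, 6 of 8, against 34.8% of all tested genes, and SYCP2 was lower, against 31.1%. At 300 nM against 100 nM, 4 were higher (SYCP3, STAG3, HORMAD1 and MEIOB), against 20.0% of all genes, and SYCP2 was lower, against 23.4%. The 2 comparisons with DMSO share their DMSO libraries. In bulk libraries such as these, more cells with a transcript and more transcript per cell cannot be told apart.

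**Figure D2:**
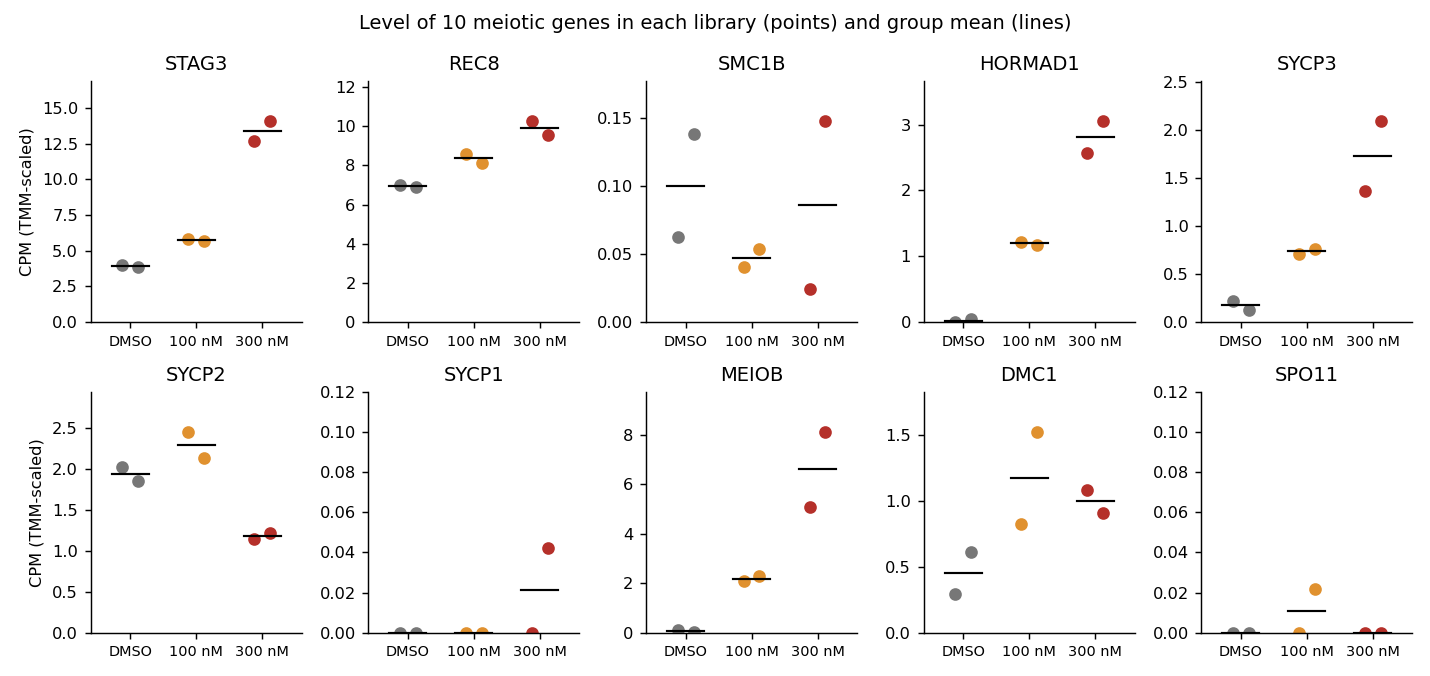
Level of each of the 10 genes in each library. The vertical axes are CPM on a scale of their own for each gene, points are libraries and lines are means of 2. STAG3, REC8, HORMAD1, SYCP3 and MEIOB have each group's libraries above those of the lower dose, SYCP2 is lowest at 300 nM, and SYCP1 and SPO11 have at most 0.0423 CPM in any library.

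STAG3 (ENSG00000066923.17, GRCh38 chromosome 7, 100177563 to 100221488, plus strand, 37 merged exon blocks) encodes the stromal-antigen subunit found in meiotic cohesin and increased with each dose. DMSO libraries had 4.02 and 3.88 CPM, 100 nM libraries 5.82 and 5.66 CPM, and 300 nM libraries 12.7 and 14.1 CPM. No library of a higher dose overlapped one of a lower dose, and the step between the decitabine doses was the larger one. Over DMSO the log2 fold change by edgeR was 0.54 at 100 nM (SE 0.15, adjusted p = 0.008) and 1.76 at 300 nM (SE 0.15, adjusted p = 2.1e-08), and between the decitabine doses 1.22 (SE 0.15, adjusted p = 5.9e-06). The 100 nM call was lost without DMSO replicate 1 (log2 fold change 0.56, adjusted p = 0.057) and without DMSO replicate 2 (0.52, adjusted p = 0.087). Of the exon bases of STAG3, 32.3% are shared with PVRIG or CASTOR3P, whose reads cannot be told apart there. CASTOR3P, on the opposite strand, was at 7.71 and 7.13 CPM at 300 nM, against 11.4 and 10.7 CPM with DMSO, the opposite direction to STAG3, and PVRIG was at or under 0.500 CPM in every library.

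REC8 (ENSG00000100918.12, chromosome 14, 24171853 to 24180257, plus strand, 12 blocks) encodes the meiotic kleisin, the subunit that closes the cohesin ring and is cleaved when chromosomes part. It had 6.98 and 6.91 CPM with DMSO, 8.61 and 8.13 CPM at 100 nM, and 10.3 and 9.56 CPM at 300 nM. The groups did not overlap and lay close together, the highest library being less than 1.5 times the lowest. Over DMSO, the log2 fold change of 0.27 at 100 nM did not pass (SE 0.14, adjusted p = 0.149), and that of 0.51 at 300 nM did (SE 0.14, adjusted p = 0.005, edgeR), a 1.43-fold difference. Without DMSO replicate 2 the 300 nM call was lost (0.50, adjusted p = 0.056). When smooth offsets for the exon length and GC content of each gene were fitted per library, the 300 nM value was -0.25 (adjusted p = 0.051), so the direction depends on that choice. The longest REC8 transcript has 58.1% GC, against a median of 48.9% over 23124 tested genes.

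SMC1B (ENSG00000077935.16, chromosome 22, 45344063 to 45413619, minus strand, 25 blocks), the meiotic partner of SMC3, was read only a few times in any library. It had 6 and 13 reads with DMSO, 4 and 5 reads at 100 nM, and 2 and 14 reads at 300 nM, or 0.0242 to 0.148 CPM over all libraries. The 2 libraries at 300 nM spanned the whole range of the other 4, so no order of doses could be read. Its log2 fold changes over DMSO were -1.06 at 100 nM (SE 1.03, adjusted p = 0.439) and -0.19 at 300 nM (SE 0.98, adjusted p = 0.872), and the second turned positive without 300 nM replicate 1 (0.56), without DMSO replicate 2 (0.47) and with the offsets (0.79).

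Set beside their somatic counterparts per kilobase of exon, the meiotic subunits differed in what they came to. STAG3 made up 44.2% ± 0.449 (SD, n = 2) of the summed length-scaled level of STAG1, STAG2 and STAG3 at 300 nM and 7.28% ± 1.63 at 100 nM, against 2.23% ± 0.117 with DMSO. By library it was 2.31% and 2.15% (DMSO), 8.43% and 6.13% (100 nM) and 44.5% and 43.8% (300 nM), with no overlap between groups. Both sides of the ratio moved. STAG3 was at 1.56 ± 0.113 CPM per kb at 300 nM, against 0.460 ± 0.0109 CPM per kb with DMSO. STAG2 was at 1.21 ± 0.107 CPM per kb at 300 nM, against 13.9 ± 0.380 CPM per kb with DMSO, and STAG1 at 0.761 ± 0.0720 CPM per kb, against 6.32 ± 0.224 CPM per kb. In the counts STAG3 was thus above STAG1 and STAG2 in both 300 nM libraries, the reverse of the order with DMSO. That order and share depend on how length and GC content are treated. The DMSO level multiplied by the 300 nM fold fitted with those offsets, an alternative chosen after seeing the data, gives 1.38 CPM per kb for STAG3, against 3.95 for STAG2 and 1.83 for STAG1, and a share of 19.3%, still above the 2.23% with DMSO.

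In the counts REC8 made up 10.1% ± 1.61 of REC8, RAD21 and RAD21L1 at 300 nM and 5.21% ± 0.473 at 100 nM, against 2.77% ± 0.144 with DMSO. RAD21 was at 23.2 ± 2.96 CPM per kb at 300 nM, against 63.5 ± 2.95 CPM per kb with DMSO, and stayed well above REC8 at 2.58 ± 0.129 CPM per kb at 300 nM, against 1.81 ± 0.0120 CPM per kb with DMSO. With the offsets REC8 and RAD21 changed by -0.25 (no call) and -0.42 at 300 nM. From those folds REC8 made up 3.30% of REC8 and RAD21 at 100 nM and 3.11% at 300 nM, against 2.77% with DMSO, so most of the rise in share was absent under that treatment. RAD21L1, another germ-cell kleisin, had 15 reads over both 300 nM libraries, against 7 over both DMSO libraries. SMC1B made up at most 0.191% of SMC1A and SMC1B in any library. These shares were not tested.

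**Figure D3:**
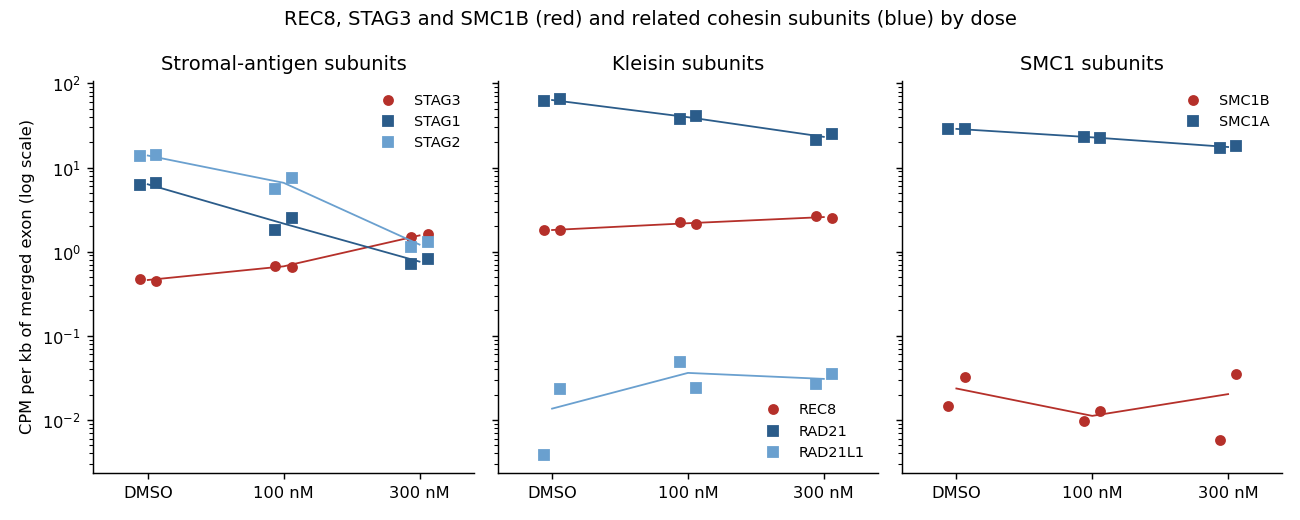
REC8, STAG3 and SMC1B (red) beside the related subunits (blue) by dose. The vertical axis is CPM per kb of merged exon on a log scale, points are libraries and lines join means of 2. In these counts STAG3 lies above STAG1 and STAG2 at 300 nM and below both with DMSO, an order that does not hold with the length and GC offsets, while REC8 stays below RAD21 and SMC1B far below SMC1A.

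HORMAD1 (ENSG00000143452.15, chromosome 1, 150698060 to 150720888, minus strand, 16 blocks) encodes a HORMA-domain protein of unsynapsed meiotic axes that promotes break formation, and is a cancer-testis antigen. DMSO libraries had 0 and 4 reads (0 and 0.0426 CPM), 100 nM libraries 119 and 109 reads (1.21 and 1.18 CPM), and 300 nM libraries 213 and 289 reads (2.57 and 3.05 CPM). All 4 decitabine libraries were far above both DMSO libraries, and both 300 nM libraries were above both at 100 nM. Over DMSO, edgeR's log2 fold change was 5.74 (SE 0.53, adjusted p = 1.2e-07) at 100 nM, then 6.97 (SE 0.50, adjusted p = 1.9e-09) at 300 nM, and 300 nM over 100 nM gave 1.23 (SE 0.30, adjusted p = 0.003). With only 4 DMSO reads the size is uncertain. The ratio of pooled scaled reads at 300 nM was 134.4, with an exact 95% binomial interval for counting error of 36.8 to 1116, taken on fragments at 2 reads each. Without DMSO replicate 1 the log2 value at 300 nM was 6.0, with the offsets it was 8.24, and without DMSO replicate 2, which leaves DMSO at 0 reads, it was 11.03, a size that depends on the prior count. At 100 nM those without a DMSO replicate were 4.77 and 9.80.

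SYCP3 (ENSG00000139351.14, chromosome 12, 101728648 to 101739472, minus strand, 5 blocks), whose protein coats the axial element and is a standard cytological marker of meiotic chromosomes, increased at each dose. The level was 0.218 and 0.128 CPM with DMSO, 0.713 and 0.758 CPM at 100 nM, and 1.37 and 2.09 CPM at 300 nM, from 21, 12, 70, 70, 113 and 198 reads. The groups were separate, although both the DMSO pair and the 300 nM pair were spread. Log2 fold changes over DMSO were 2.08 at 100 nM (SE 0.39, adjusted p = 3.8e-04, edgeR) and 3.31 at 300 nM (SE 0.38, adjusted p = 8.5e-07), the second being 4.51 with the offsets. Between the decitabine doses it was 1.23 (SE 0.33, adjusted p = 0.006), a call lost without 300 nM replicate 2 (0.89, adjusted p = 0.084). CHPT1 on the opposite strand shares 14.8% of the exon bases and was at 33.2 and 35.8 CPM at 300 nM, against 34.0 and 32.9 CPM with DMSO, without a call at either dose (adjusted p = 0.738 at 300 nM).

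SYCP2 (ENSG00000196074.12, chromosome 20, 59863563 to 59933655, minus strand, 47 blocks), the axial-element partner of SYCP3, did not move with it. It had 2.03 and 1.86 CPM with DMSO, 2.46 and 2.13 CPM at 100 nM, and 1.15 and 1.23 CPM at 300 nM. Both 300 nM libraries lay below the other 4, and both 100 nM libraries lay above those with DMSO. The log2 fold change of 0.24 over DMSO at 100 nM did not pass (SE 0.22, adjusted p = 0.414). The 300 nM libraries were lower by edgeR's test, at -0.71 over DMSO (SE 0.23, adjusted p = 0.012) and -0.95 over 100 nM (SE 0.23, adjusted p = 0.003). The call against DMSO was lost without DMSO replicate 1 (-0.65, adjusted p = 0.063). With the offsets SYCP2 was higher at both doses, by 0.76 (adjusted p = 0.011) at 100 nM and 0.98 (adjusted p = 0.002) at 300 nM, so its direction at 300 nM depends on the treatment of the counts. Its merged exons span 6466 bases with 34.4% GC in the longest transcript, against medians of 3470 bases and 48.9% over tested genes.

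SYCP1 (ENSG00000198765.11, chromosome 1, 114854803 to 114995370, plus strand, 35 blocks), the transverse filament that makes the synaptonemal complex a zipper, had 0 reads in 5 libraries and 4 reads, or 0.0423 CPM, in 300 nM replicate 2. It was not tested, and the 4 reads are fewer than the 6 that a count of 0 allows in the other libraries, so no difference between groups could be read.

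MEIOB (ENSG00000162039.15, chromosome 16, 1833987 to 1884294, minus strand, 16 blocks) encodes a relative of the single-strand DNA binding protein RPA1 that is needed for meiotic recombination in mice. DMSO libraries had 10 and 2 reads (0.104 and 0.0213 CPM), 100 nM libraries 204 and 212 reads (2.08 and 2.29 CPM), and 300 nM libraries 422 and 769 reads (5.10 and 8.12 CPM). The groups did not overlap, and 300 nM replicate 2 stood above its partner. Log2 fold changes over DMSO were 5.09 at 100 nM (SE 0.41, adjusted p = 2.5e-08, edgeR) and 6.68 at 300 nM (SE 0.39, adjusted p = 1.6e-10), and that of 300 nM over 100 nM was 1.6 (SE 0.25, adjusted p = 8.9e-05). The pooled ratio at 300 nM was 106.3, with an exact 95% binomial interval on fragments of 48.6 to 291.1. The log2 value at 300 nM was 8.19 without DMSO replicate 1, 5.97 without DMSO replicate 2 and 7.71 with the offsets, and at 100 nM it was 6.60 and 4.38 without those DMSO replicates. FAHD1 or LINC00254 shares 18.0% of the exon bases. FAHD1 was at 25.1 and 23.2 CPM at 300 nM, against 29.7 and 30.4 CPM with DMSO, a direction opposite to that of MEIOB, and LINC00254 was at 0 in all 6 libraries.

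DMC1 (ENSG00000100206.9, chromosome 22, 38518949 to 38570286, minus strand, 16 blocks), a recombinase specific to meiosis, was higher with decitabine but not higher at 300 nM than at 100 nM. It had 0.291 and 0.617 CPM with DMSO, 0.825 and 1.53 CPM at 100 nM, and 1.09 and 0.908 CPM at 300 nM. Every decitabine library was above both DMSO libraries, and the 300 nM libraries lay between those at 100 nM. Log2 fold changes over DMSO were 1.37 at 100 nM (SE 0.39, adjusted p = 0.009, edgeR) and 1.13 at 300 nM (SE 0.40, adjusted p = 0.019), and that of 300 nM over 100 nM was -0.24 (SE 0.37, adjusted p = 0.646). Both calls rest on single libraries. At 100 nM the call was lost without 100 nM replicate 2 (0.87, adjusted p = 0.141) or DMSO replicate 1 (0.93, adjusted p = 0.080), and at 300 nM without 300 nM replicate 1 (1.00, adjusted p = 0.082) or DMSO replicate 1 (0.69, adjusted p = 0.156). Without DMSO replicate 2 the values were 2.01 and 1.76 at 100 nM and 300 nM.

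SPO11 (ENSG00000054796.12, chromosome 20, 57329759 to 57343994, plus strand, 14 blocks), the enzyme that makes the breaks that start meiotic recombination, had 2 reads in 100 nM replicate 2 and 0 in the other 5 libraries. These too are fewer than a count of 0 allows in the other libraries, so no difference between groups could be read for SPO11.

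**Figure D4:**
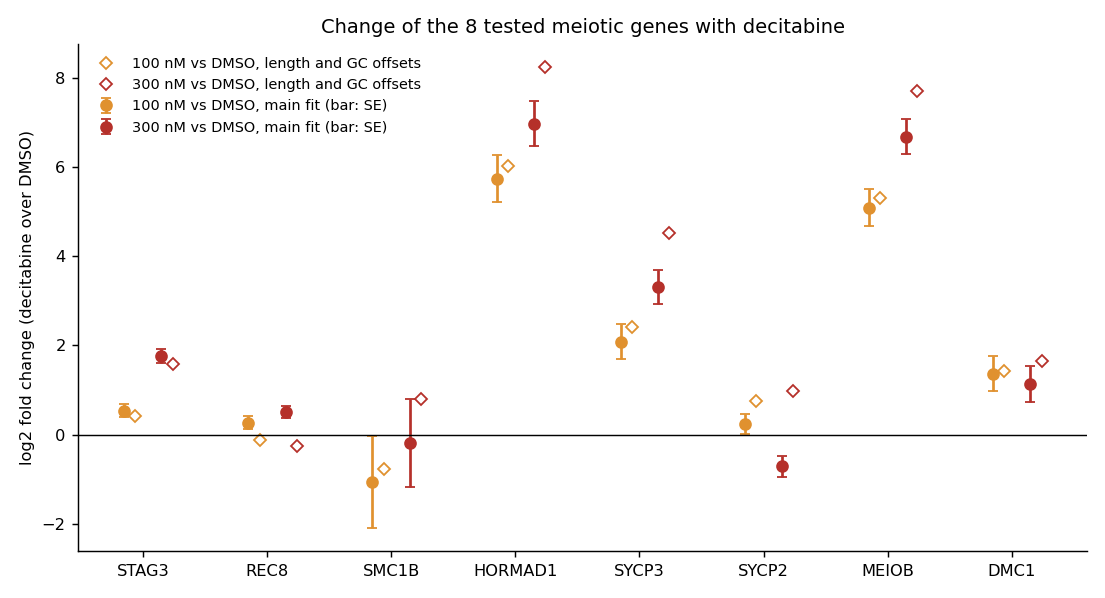
Log2 fold change over DMSO of the 8 tested genes at 100 nM (orange) and 300 nM (red). Filled points are the fit to the counts with their SE as bars, and open diamonds the same fit with the length and GC offsets. SYCP2 and REC8 cross 0 between the treatments of the counts at 300 nM, from -0.71 to 0.98 and from 0.51 to -0.25, while STAG3, HORMAD1, SYCP3, MEIOB and DMC1 lie above 0 in both.

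Summed over the 10 genes, levels were 13.7 and 13.6 CPM with DMSO, 21.8 in each library at 100 nM, and 34.3 and 39.2 CPM at 300 nM. The share of these reads from REC8 and STAG3 was 80.3% and 79.4% in DMSO libraries, 66.3% and 63.4% in 100 nM libraries, and 67.0% and 60.3% in 300 nM libraries. The other 8 genes together gave 2.71 and 2.81 CPM with DMSO, 7.33 and 7.96 CPM at 100 nM, and 11.3 and 15.6 CPM at 300 nM. Per length, the order of means at 300 nM was MEIOB at 2.87 ± 0.928, REC8 at 2.58 ± 0.129, STAG3 at 1.56 ± 0.113, HORMAD1 at 1.17 ± 0.141, SYCP3 at 0.451 ± 0.134, DMC1 at 0.283 ± 0.0359 and SYCP2 at 0.184 ± 0.00847 CPM per kb. There MEIOB and REC8 did not differ beyond the spread of MEIOB. With DMSO the order was REC8 at 1.81, STAG3 at 0.460, SYCP2 at 0.301 and DMC1 at 0.129 CPM per kb, with the other 6 at or under 0.0452 CPM per kb. SMC1B, SYCP1 and SPO11 were below the members named at 300 nM.

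The gene lists around these 10 gave a mixed account at 300 nM against DMSO, read against the 34.8% of all tested genes that were higher and the 31.1% that were lower. Genes with under 10 reads in both DMSO libraries passed the count filter only through the decitabine libraries, so a rise of theirs was built into the selection and is given as a description. Of 6 regulators of meiotic entry, 5 were tested, 3 rose and 1 fell, with a median log2 fold change of 6.40, against 0.05 over all tested genes. All 3 that rose (DAZL, STRA8 and MEIOSIN) were such genes, so this count and median support nothing by themselves. DAZL, an RNA-binding protein that licenses germ cells for meiosis, was at 21.5 ± 1.74 CPM at 300 nM, against 0.0210 ± 3.33e-04 CPM with DMSO (log2 fold change 9.91, adjusted p = 3.0e-14, edgeR, and 11.01 with the offsets), from 4 DMSO reads in all, and its pooled ratio was 1027, with an interval on fragments of 284 to 8489. STRA8, the retinoic-acid-induced gatekeeper of meiosis, had 241 and 233 reads at 300 nM and 59 and 59 at 100 nM, against 0 and 0 with DMSO, at least 84.6-fold higher at 300 nM when DMSO is set at 6 reads (3 fragments) over the group. MEIOSIN, its transcriptional partner, rose by 6.40 (adjusted p = 3.8e-10), or by 5.50 with the offsets, and YTHDC2, an RNA helicase needed for meiotic entry in mice, changed by -2.39 (adjusted p = 5.8e-10), or by -0.32 with the offsets.

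Of 8 genes that act with SPO11 in break formation, 5 were tested, 2 rose and 1 fell, and IHO1, with 4 reads in each DMSO library, passed the filter only through decitabine libraries. MEI1 was at 6.53 ± 1.78 CPM at 300 nM, against 0.174 ± 0.00469 CPM with DMSO (log2 fold change 5.22, adjusted p = 5.6e-11, edgeR). IHO1, a partner of HORMAD1 on the axis, was at 1.54 ± 0.0501 CPM, against 0.0421 ± 6.66e-04 CPM (5.14, adjusted p = 4.9e-08). TOPOVIBL, the other subunit of the SPO11 enzyme, was at 6.999 ± 0.00510 CPM, against 9.97 ± 0.902 CPM (-0.51, adjusted p = 0.006), a call lost without DMSO replicate 2 (-0.42, adjusted p = 0.103). MEI1, IHO1 and HORMAD1 thus rose in libraries in which SPO11 itself had at most 2 reads.

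Of 19 genes of meiotic strand exchange and crossover formation, 17 were tested, 8 rose and 6 fell, with a median of 0.34. Of the 8, TEX11, SPATA22 and SPO16 had at most 2 reads in a DMSO library, so their rise was built into the selection. TEX11, an X-linked crossover protein, had 382 and 474 reads at 300 nM and 174 and 159 at 100 nM, against 0 and 0 with DMSO, at least 152.8-fold higher at 300 nM on the same floor. The others named by their small p all fell, while the rest of the 8 that rose had larger adjusted p. Among those was BRME1, named after its value was seen, which rose by 1.63 (adjusted p = 1.5e-06, edgeR), or by 0.82 with the offsets. MLH3, a mismatch-repair protein that resolves crossovers, changed by -2.42 (adjusted p = 5.8e-10), TEX15 by -4.25 (adjusted p = 1.5e-09) and MSH5, which stabilises crossover intermediates, by -2.56 (adjusted p = 6.7e-07). With the offsets MLH3 changed by -1.33 and TEX15 by -2.23, both still lower, and over the list 8 were higher and 4 lower. Over all 23160 tested genes, 7334 were higher and 7944 lower at 300 nM with the offsets. Of 6 genes that tether telomeres in meiosis, 4 were tested. MAJIN, with 18 and 43 reads at 300 nM against 0 and 0 with DMSO, was at least 10.9-fold higher (a rise likewise built into the selection), KASH5 rose by 1.67 (adjusted p = 0.006) and SUN1, which somatic cells also use, changed by -0.74 (adjusted p = 5.7e-06). The KASH5 call was lost with the offsets (1.05, adjusted p = 0.074) and without DMSO replicate 1 (1.08, adjusted p = 0.074). Of the 8 other synaptonemal complex and axis genes only 3 passed the count filter, and the 1 call among them was SYCP2L, a paralogue of SYCP2, which fell by 1.71 on the log2 scale (adjusted p = 0.004), or by 1.11 with the offsets. The medians of these meiotic lists were the same with genes at 0 DMSO reads set to their bounds.

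Somatic counterparts mostly went down. All 15 genes of mitotic cohesin and its regulators were tested. At 100 nM 13 fell, where 18.7% of all tested genes were lower, with a median of -1.08. At 300 nM 13 fell and 1 rose, with a median of -2.61. NIPBL, the cohesin loader, changed by -3.61 (adjusted p = 9.8e-13, edgeR), STAG2 by -3.52 (adjusted p = 3.2e-12), SMC3, a subunit that somatic and meiotic rings share, by -3.51 (adjusted p = 8.0e-12) and SGO2, a protector of centromeric cohesin, by -3.17 (adjusted p = 2.2e-11). STAG1 changed by -3.05, RAD21 by -1.45 and SMC1A by -0.72. With the offsets 11 were lower at 100 nM, 10 of them also lower without, and the median was -0.42. Of all 23160 tested genes, 6429 were lower at 100 nM with the offsets, against 4331 without. At 300 nM 13 were lower with the offsets, 12 of them also lower without, and the median was -1.11. There 7944 of all tested genes were lower with the offsets, against 7203 without. SGO1 lost its call (-0.14, adjusted p = 0.267) and MAU2 gained one (-0.17, adjusted p = 0.031), both named after their values were seen. NIPBL then changed by -1.94, STAG2 by -1.81, SMC3 by -2.39, SGO2 by -1.53, STAG1 by -1.79 and RAD21 by -0.42. The gene that rose was CDCA5 (0.95, adjusted p = 6.1e-07, and 0.29 with the offsets), named after its value was seen, which encodes sororin.

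Of 14 genes of somatic homologous recombination, 2 rose and 7 fell. BRCA2, which in meiosis helps load DMC1, changed by -4.74 (adjusted p = 1.2e-11), RAD54B by -3.04 (adjusted p = 1.3e-09) and XRCC2 by -2.04 (adjusted p = 1.5e-09), while RPA2 rose by 0.97 (adjusted p = 4.9e-07). With the offsets 4 were higher and 8 lower, and BRCA2 changed by -2.77, RAD54B by -1.69 and XRCC2 by -0.99. With the same offsets 7334 of all 23160 tested genes were higher at 300 nM and 7944 lower. Of 11 genes of PRC1.6, the complex that silences germ-cell genes in somatic cells, 3 rose and 6 fell, with a median of -0.53. CBX3 changed by -1.79 (adjusted p = 9.5e-10), MGA by -1.91 (adjusted p = 6.9e-09), RING1 by 0.93 (adjusted p = 2.0e-06) and MAX by 0.86 (adjusted p = 7.5e-06). The balance of this list depended on the offsets, with which 4 were higher and 3 lower and the median was -0.01. RNF2 was lower without them (-0.70) and higher with them (0.50, adjusted p = 2.6e-04), as was YAF2 (-0.53 and 1.01, adjusted p = 2.0e-06), both named after their values were seen. CBX3 then changed by -0.72, MGA by -0.46 and RING1 by -0.09 (adjusted p = 0.362).

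**Figure D5:**
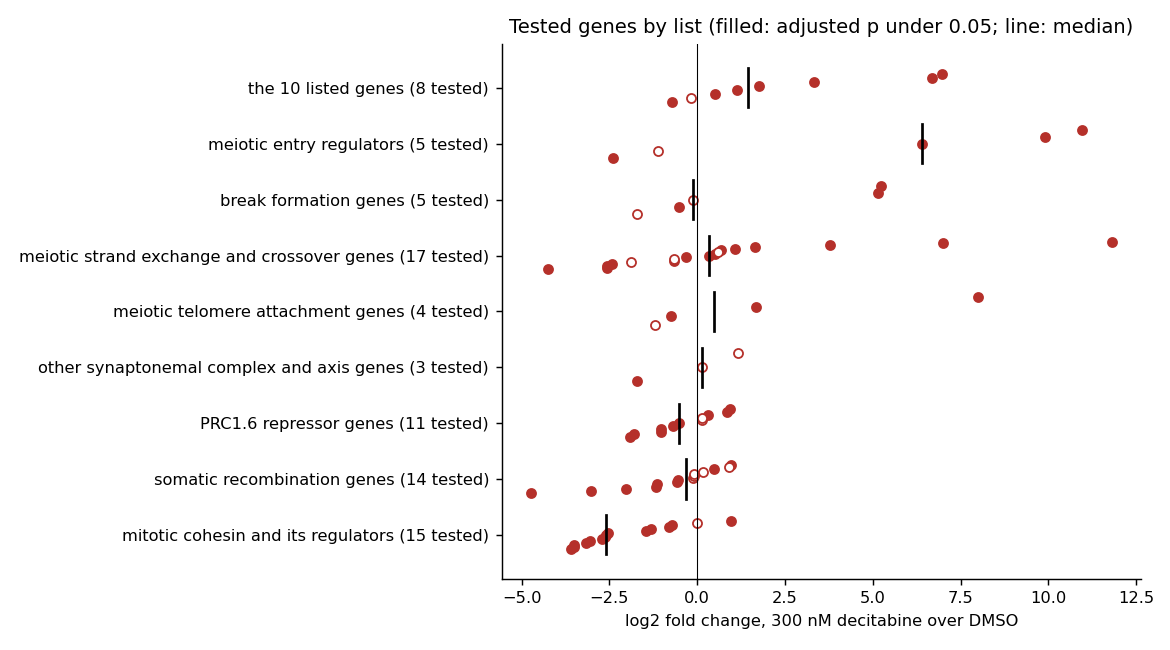
Log2 fold change at 300 nM over DMSO of the tested genes of the 10 genes' list and of 8 pathway lists, without the marker lists. Each point is a gene, filled where the adjusted p was under 0.05, and the black line is the list's median, which among those drawn runs from -2.61 for mitotic cohesin to 6.40 for regulators of meiotic entry. Sizes for TEX11, STRA8, MAJIN and SPATA22, which had 0 DMSO reads, depend on the prior count.

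Markers of other cells that could carry meiotic transcripts were present in part. The 10 markers of germ cells and testicular somatic cells summed to 36.04 and 39.8 CPM at 300 nM, near the sums of the 10 meiotic genes there, and to 18.3 and 17.4 CPM at 100 nM, against 41.7 and 40.1 CPM with DMSO, with 2 to 6 of them at 0 reads in a library. AMH was at 7.72 and 8.34 CPM at 300 nM, against 41.6 and 40.0 CPM with DMSO, nearly all of the DMSO sum. Of the 10, 5 were tested, and at 300 nM 4 were higher (DDX4, DAZL, PIWIL2 and INSL3) and AMH was lower, with a median of 6.91, or 5.56 with INSL3 at its bound. Those 4 had at most 4 reads in a DMSO library, so their rise was built into the selection, and DAZL is counted among the regulators of meiotic entry too. DAZL was at 20.3 and 22.8 CPM at 300 nM, against 0.0208 and 0.0213 CPM with DMSO, and PIWIL2 at 7.09 and 7.82 CPM, against 0.0416 and 0 CPM. These levels made up most of the sum at 300 nM. DDX4, the germ-cell helicase, had 54 and 44 reads at 300 nM, against 0 and 2 with DMSO, while the spermatid markers TNP1 and PRM1 were at 0 in all 6 libraries. The 5 blood cell markers summed to 4.04 and 2.47 CPM at 300 nM, against 0.614 and 0.681 CPM with DMSO, with 0 to 2 of the 5 at 0 reads in a library. The part of these markers, and of the kidney markers that fell, in the members' changes was not tested.

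REC8 had the most reads of the 10 genes, 4671 over the 6 libraries. Of 12431 protein-coding genes averaging 1 CPM or more, the 3 whose log2 level followed it most closely over the 6 libraries were TXNRD2 (Pearson's r = 0.9993), TXLNA (0.9992) and NANS (0.9992). All 6 values share the same libraries and the ordering by dose, and 1802 genes had an r above 0.95, so the likeness is a description of a pattern that many genes had.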

How the data were processed

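The authors deposited whole-number counts of reads per gene, made with featureCounts 1.5.0-p3 on GENCODE v28 per the file headers, with STAR and SAMtools named in the submitters' processing notes. The header commands carry no paired-end or strand option, so mates were counted separately (even numbers were 70.0% to 74.4% of counts from 1 to 10) and strands were not told apart. The notes name hg19 and GRCh37, but the files' coordinates are GRCh38: 56933 versioned identifiers recur in GENCODE v29, every one at identical GRCh38 coordinates. Names came from a reference list of gene symbols, or from GENCODE v29 where that list had none, for 58261 genes. The deposited log2 matrix, variance-stabilised by the authors with a function not given in the sources used here, served as an alternative.

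Counts were TMM-scaled and filtered with filterByExpr, leaving 23160 genes, and tested two-sided with edgeR 4.0.16 (quasi-likelihood, all 6 libraries, group as factor, 3 residual degrees of freedom, limma 3.58.1, R 4.3.3). SE is the log2 fold change divided by the root of F. Benjamini-Hochberg adjustment covered all tested genes. In simulated data the fit recovered 73.4% of 2-fold and 92.3% of 4-fold changes at 100 nM, with 4.65% of calls false. At 300 nM it recovered 64.2% and 86.2%, with 3.25% of calls false. The simulation changed far fewer genes than were called in these data, so it does not check the scaling in that setting. Its changed genes were drawn only from those above a minimum DMSO level. HORMAD1, MEIOB, SMC1B and SYCP3, at 0.173 CPM or less with DMSO, were below that level, so the recovery rates do not cover them. Alternatives were DESeq2 1.42.0, its size factors in edgeR, no filter, only the groups compared, halved counts, length and GC offsets, a replicate block and each library left out. Lengths are merged exons. Intervals and floors take a fragment as 2 reads and cover counting error only, since reads without molecular identifiers are not independent molecules.

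The members and lists were chosen with earlier results of these data known. Named beside the 10 genes are up to 4 called genes per list with the smallest adjusted p at 300 nM, and their paralogues. Promoter letters are from RefSeq, GRCh38.p14.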

Additional observations from a re-analysis of the deposited data

How the results depend on the processing

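Of the log2 fold changes of the tested members under the alternatives, 310 kept their direction and side of the threshold, 11 reversed, 9 lost their call and 1 gained one. With the length and GC offsets, REC8 was at -0.12, -0.25 and -0.13 (100 nM over DMSO, 300 nM over DMSO, 300 nM over 100 nM), SYCP2 at 0.98 and 0.22 (300 nM over DMSO and over 100 nM), SMC1B at 0.79 (300 nM over DMSO) and DMC1 at 0.22 (300 nM over 100 nM), and 0 members were called lower in either 300 nM comparison (1 and 0 at an unadjusted p under 0.05). Over all 23160 tested genes, 7944 were lower at 300 nM than with DMSO and 4179 lower than at 100 nM with the offsets. The median over all tested genes at 300 nM was -0.08 with the offsets, against 0.05 without. Leaving out each replicate in turn, SMC1B ranged from -1.99 to 0.56 (300 nM over DMSO) and from -0.94 to 1.62 (300 nM over 100 nM), and DMC1 from -0.64 to 0.27 (300 nM over 100 nM). Members higher at 100 nM then numbered 3 to 5, and members lower at 300 nM against DMSO 0 to 1. Over all genes 2883 to 5036 were then lower at 100 nM and 2896 to 4901 higher at 300 nM than at 100 nM, lowest without replicate 1 and replicate 2 of 100 nM. On the deposited log2 matrix, limma gave 4.43 for HORMAD1, 5.01 for MEIOB and 2.49 for SYCP3 at 300 nM. The cause was not tested.

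With no length scaling the STAG3 share was 45.7% at 300 nM and 2.36% with DMSO, the REC8 share 1.74%, 3.30% and 6.52% by rising dose, and the SMC1B share 0.0198% at 100 nM and 0.0331% with DMSO. On unshared exon length, chosen after seeing the data, the STAG3 share was 2.95%, 9.59% and 50.9% by rising dose and the REC8 share 4.55% at 100 nM and 2.41% with DMSO. The STAG3 share from the offset folds was 4.70% at 100 nM and 19.3% at 300 nM, and that of REC8 among REC8 and RAD21 was 3.30% and 3.11%. The sums without REC8 and STAG3 and the list counts under each alternative were, like these, chosen after seeing the data. In the 250 bases before the start alone, GCGGGA was in 23.5% of all windows and CACGTG in 6.35%.

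Same-numbered libraries correlated at 0.217 (100 nM with DMSO), 0.269 (300 nM with DMSO) and 0.50 (300 nM with 100 nM) in their deviations over 12464 genes, but 2 numbers a group do not establish a pairing. With the replicate block 6179 genes were higher and 5140 lower at 100 nM, 8344 and 7521 at 300 nM, and 5299 and 6044 between the decitabine doses, and no member's call changed. Depth limits SYCP1, SPO11 and SMC1B, and the sizes of HORMAD1 and MEIOB, which rest on 4 and 12 DMSO reads.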
